A study of Mus musculus with 8 samples.

Results

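The RNA described here was bound to tagged ribosomes of AgRP neurons, cells of the hypothalamic arcuate nucleus that drive feeding. It is held in 4 immunoprecipitated (IP) libraries out of 8 in the series, and the other 4 are input libraries of the tissue homogenate, which enter no comparison below. The 4 libraries were chosen by their sample titles alone. Every transcript in them was ranked by level, with ribosomal RNA features left out, and the shares of gene classes and the spread among replicates were measured. All 8 libraries share the alleles Mfffl/fl, together with AgRP-IRES-Cretg/wt, the driver, and RpL10a-GFPfl/wt, the tag, and all mice were random-fed. In these mice Cre recombinase made from the Agrp locus is meant to delete Mff, which encodes mitochondrial fission factor, and at the same time to switch on a GFP-tagged copy of the ribosomal protein RpL10a. Each library was made from the microdissected arcuate nuclei of 3 mice of mixed sexes aged 11 to 12 weeks. The levels below are those of mice with this genotype, and none of the 8 libraries is of a control genotype.

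AgRP neurons release 2 peptides that promote feeding, agouti-related peptide and neuropeptide Y, together with the inhibitory transmitter GABA. They carry receptors for leptin, ghrelin and insulin, through which they follow the energy state of the body. In translating ribosome affinity purification (TRAP), an antibody to GFP pulls the tagged ribosomes out of a homogenate with the messenger RNA they hold, so a library reports which transcripts sit on the ribosomes of the Cre-expressing cells. Ribosomes and RNA of other cells can stay on the beads as well, and the pulldown has no tag-free control among the libraries used here.

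The coding sequences of 3 transcripts near the head of the ranking show how short its leading messages are when levels are taken per transcript length. They were read from the GENCODE M21 transcripts of GRCm38, in 5′ to 3′ direction. The first is the whole reading frame of Npy, on the plus strand within chr6:49822710-49829507, with 97 codons before the stop. Capitals mark the glycine, lysine and arginine codons, starting at codon 65, at which the precursor is cleaved and the peptide amidated. The second is bases 235 to 396 of the Agrp reading frame, on the minus strand within chr8:105566698-105637393, in which capitals mark 10 of its 11 cysteine codons. These cysteines form the disulfide-bonded fold that binds melanocortin receptors. The third is the reading frame of Rpl41, on the minus strand within chr10:128548114-128549305, where capitals mark the lysine and arginine codons, 17 of 25. Rpl41 encodes a very small and very basic protein of the large ribosomal subunit.
Npy: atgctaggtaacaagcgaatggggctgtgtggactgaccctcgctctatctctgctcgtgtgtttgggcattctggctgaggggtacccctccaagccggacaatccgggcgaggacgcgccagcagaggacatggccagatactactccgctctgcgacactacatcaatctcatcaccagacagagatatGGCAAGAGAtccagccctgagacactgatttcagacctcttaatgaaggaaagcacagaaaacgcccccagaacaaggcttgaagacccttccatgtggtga
Agrp: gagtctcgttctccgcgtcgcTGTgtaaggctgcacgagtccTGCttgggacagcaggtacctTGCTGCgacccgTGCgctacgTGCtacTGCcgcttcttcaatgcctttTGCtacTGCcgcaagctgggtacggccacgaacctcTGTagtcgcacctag
Rpl41: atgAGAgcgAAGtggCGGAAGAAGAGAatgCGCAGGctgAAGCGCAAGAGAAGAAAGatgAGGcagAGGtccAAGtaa
The reading frame took up 51.9% of the Npy transcript, 53.95% of the Agrp transcript and 13.4% of the Rpl41 transcript. Rps29 and Rps28, at ranks 4 and 5 by mean TPM, which encode proteins of the small subunit, have reading frames of 171 and 210 bases.

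The 4 libraries, numbered 1 to 4 as the replicates are, held 39.9 to 64.8 M (mega) estimated counts. Ribosomal RNA features took 26.4% to 30.4% of these and were removed, which left 27.8 to 47.7 M counts. A level is given as CPM, counts per M of the remaining counts of a library. At these depths 1 CPM stands for 27.8 to 47.7 counts, and a listed 0 allows up to 0.0630 to 0.108 CPM (3 counts), for counting error only. Levels of different genes are compared per transcript length, as TPM (CPM divided by the length of the transcript and rescaled to a sum of 1 M), and an order by CPM, which also reflects length, is named as one. Errors are SD over the 4 libraries, and the coefficient of variation (CV) is the SD divided by the mean. Library 3 stood somewhat apart. Across the 9421 genes that averaged 10 CPM or more the rank correlation was 0.949 to 0.954 in the 3 pairs that include it and 0.964 to 0.968 in the other pairs, a description across genes that share their libraries. Relative to the mean of the 4, the longest of 5 equal classes of transcript length sat 0.04 higher in library 3 (median log2 deviation) and the shortest 0.04 lower. Library 3 also had the most counts (64.8 M) and another make-up of the removed features. Before removal, the ribosomal RNA feature Rn18s-rs5 took 21.4%, 20.0%, 11.3% and 23.8% of the counts of libraries 1 to 4. The removed feature Yam1 took 5.38%, 5.92%, 12.4% and 3.77%. The part that transcript length, depth or this make-up has in what follows was not tested.

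The ranking had no dominant transcript. The 10 most abundant genes held 2.71% to 2.96% of the counts of a library, the top 100 held 15.2% to 16.0% and the top 1000 held 50.6% to 51.7%. It took 944, 972, 957 and 921 genes in libraries 1 to 4 to reach 50% of the counts. In all 4 libraries 12492 genes reached 1 CPM, 8474 reached 10 CPM, 2082 reached 100 CPM and 81 reached 1000 CPM. The order was repeatable at its head: 17 genes were among the top 20 by TPM in every library, out of 25 that reached the top 20 of any, and 91 were among the top 100 in every library, out of 113.

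**Figure D1:**
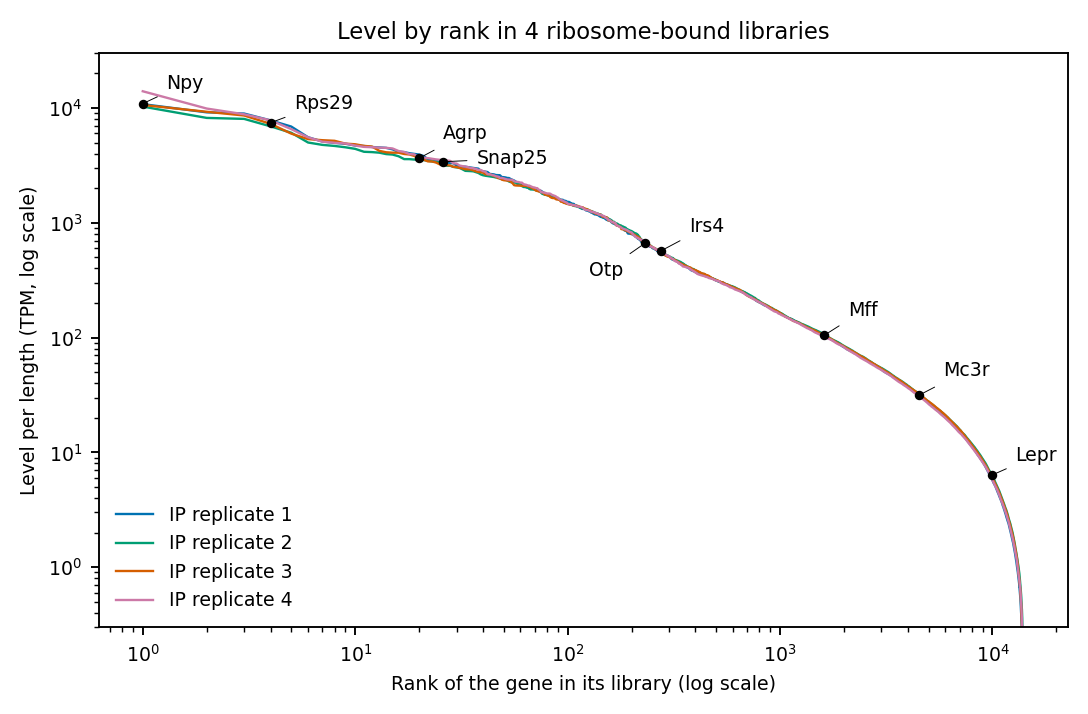
TPM of each gene (vertical, log scale) against its rank within the library (horizontal, log scale), 1 line per IP replicate, with named genes at their mean TPM and mean rank (black points). The 4 lines lie on each other over most of the range and part at the head, where the highest gene of library 4, Npy, reaches 14001 TPM; Agrp lies at rank 20 and Mff at rank 1615.

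Npy and Agrp, the defining genes of these neurons, stood at rank 1 and rank 20 by mean TPM. Npy (ENSMUSG00000029819) had 2800, 2623, 2194 and 3673 CPM in libraries 1 to 4. On the scale per length its level was 10929 ± 2254 TPM (SD, n = 4), and it was the first gene in libraries 1, 2 and 4 and the third in library 3. Agrp (ENSMUSG00000005705) had 1169, 1186, 993 and 1550 CPM, or 3657 ± 651 TPM (SD, n = 4), and its rank by TPM was 24, 18, 31 and 12. Both genes were highest in library 4 and lowest in library 3, and libraries 1 and 2 lay close together between them. Their proportion was far steadier than their levels. Npy exceeded Agrp per length 3.11, 2.87, 2.87 and 3.07 times, a ratio with a CV of 4.33%, while the CPM of Npy and Agrp had CVs of 22.0% and 19.1%. In RNA pulled down from pooled tissue, a smaller share of RNA from AgRP cells and less of these RNAs per AgRP cell cannot be told apart.

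The lead of Npy over the next gene did not hold in every library. Rpl41 had 9207 ± 1031 TPM (SD, n = 4), and Npy stood at 1.18, 1.25, 0.810 and 1.59 times its level in libraries 1 to 4, so the order of the first 2 genes lies within the spread between replicates. Rps27, which encodes a small-subunit protein, followed at 9042 ± 773 TPM and was not separated from Rpl41. Rps29 (7451 ± 433 TPM) and Rps28 (6382 ± 424 TPM) came next. Below them Rps15 (5142 ± 343 TPM), Rpl10 (5005 ± 420), the calmodulin gene Calm2 (4999 ± 203), the superoxide dismutase gene Sod1 (4948 ± 333) and Rpl38 (4724 ± 226) lay within their spread of one another. Agrp shared its neighbourhood with Rpl3 (3681 ± 303 TPM), Rpl23a (3675 ± 332) and Rpl14 (3602 ± 238), and its position among them changed from library to library.

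**Figure D2:**
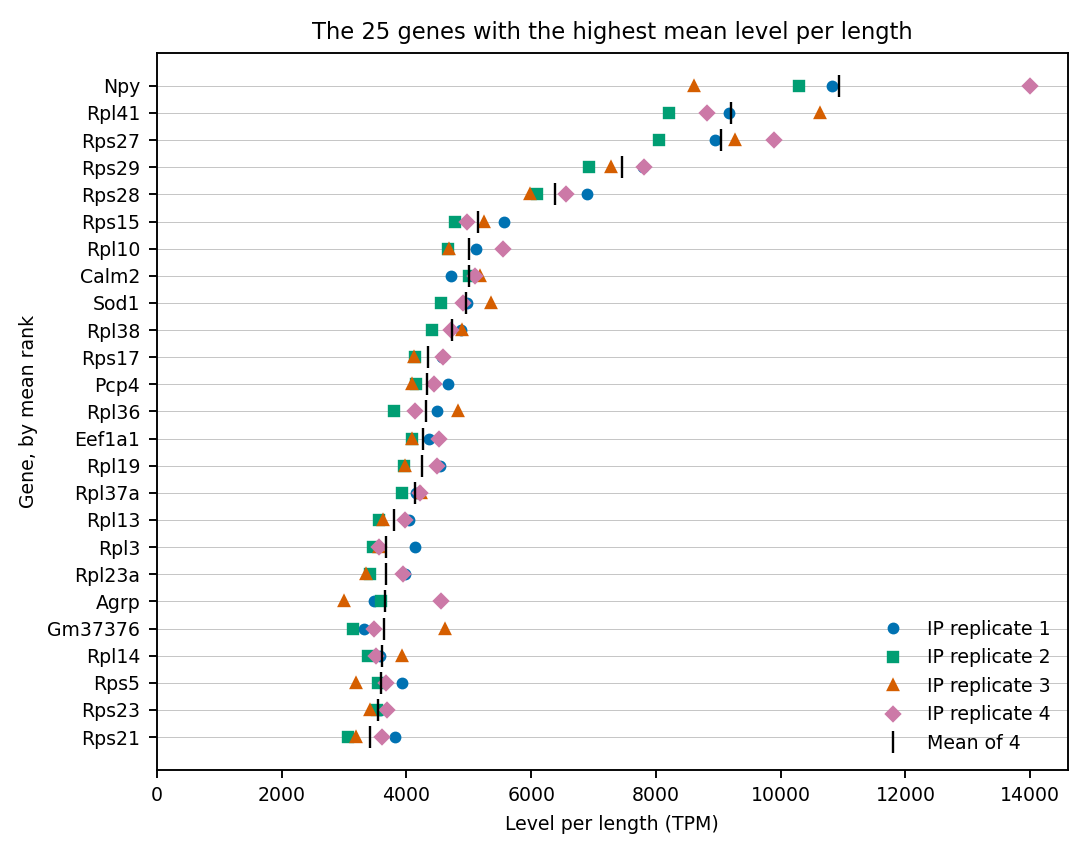
TPM in each IP replicate (symbols) and the mean of the 4 (black bars) for the 25 genes with the highest mean TPM. Npy spans 8609 to 14001 TPM, while most ribosomal protein genes keep their 4 values close together.

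A further 14 genes that mark AgRP neurons, from a list chosen with earlier results of these data known, ran from rank 162 to rank 9923 by mean TPM. The secreted peptide gene Sst (1024 ± 245 TPM), the serine protease inhibitor gene Serpina3n (870 ± 118 TPM), the homeobox gene Otp (667 ± 24.7 TPM) and the insulin receptor substrate gene Irs4 (567 ± 67.4 TPM) led them, at ranks 162, 188, 232 and 274. Asb4, a gene of a ubiquitin ligase subunit, had 147 ± 15.2 TPM, and the neuropeptide Y receptor gene Npy2r had 132 ± 10.1 TPM. The calcitonin receptor gene Calcr had 115 ± 4.49 TPM, the transcription factor gene Tbx3 96.3 ± 9.50 TPM and the activin receptor gene Acvr1c 73.9 ± 9.82 TPM. Lower than these receptor genes were the melanocortin receptor gene Mc3r (31.5 ± 12.4 TPM), the ghrelin receptor gene Ghsr (24.5 ± 6.24 TPM) and the leptin receptor gene Lepr (6.33 ± 1.74 TPM). The protease gene Corin had 11.6 ± 3.19 TPM and the orphan receptor gene Gpr83 6.91 ± 1.65 TPM. For comparison, the median over the 9421 genes of at least 10 CPM was 29.7 TPM. Of the 16 genes in the list, 15 reached 10 CPM in all 4 libraries, and the exception was Gpr83.

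Spread differed among these markers. Otp had 810, 823, 756 and 836 CPM and Calcr 195, 187, 199 and 210 CPM, with CVs of 4.37% and 4.92%. Irs4 had 1846, 1686, 1369 and 1606 CPM, with library 3 lowest and library 1 highest. Sst went the other way from Npy and Agrp, with 297, 409, 388 and 247 CPM, lowest in library 4. Mc3r had 33.7, 28.9, 28.0 and 60.6 CPM, a CV of 40.8%, and library 4 was well above the others. Summed without Npy and Agrp, the 14 genes had 4994, 5051, 4383 and 5067 CPM, so library 3 was also lowest for the rest of the list while libraries 1, 2 and 4 were nearly level. Relative to Otp, Npy stood at 16.2, 14.95, 13.6 and 20.6 times and Agrp at 5.22, 5.21, 4.75 and 6.71 times on the TPM scale. Library 4 was thus the highest for Npy and Agrp also when scaled to Otp. No other marker of the list was used for scaling. Acvr1c (283, 287, 289 and 376 CPM) and Mc3r were themselves highest in library 4.

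Messages for the translation machinery filled the head of the ranking. Of the 30 genes with the highest TPM 21 encoded cytosolic ribosomal proteins, and of the top 100 they were 54, out of 83 such genes among the 14220 with at least 1 TPM. By CPM, which favours long transcripts, they were 6 of the top 30. The whole list of 86 ribosomal protein genes took 7.67%, 6.84%, 7.09% and 7.69% of the counts (7.32% ± 0.43, SD, n = 4), the largest share of any list. Its median level was 1917 TPM, beside 15.02 TPM over the genes of at least 1 TPM. The members shared an order of libraries: 45 of the 83 with at least 10 CPM were highest in library 4 and 30 in library 1, and 50 were lowest in library 2. Over all 9421 genes of that level 22.2% were highest in library 4, 24.4% in library 1 and 19.2% lowest in library 2. The stalk protein gene Rplp1 (703, 574, 586 and 762 CPM) and Rpl29 (486, 448, 428 and 557 CPM) varied most, with CVs of 13.97% and 11.9%. Many ribosomal protein genes have processed copies elsewhere in the genome, and the estimation step divides reads between them; adding the copies took the share to 7.38%.

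The messages that led per length were short. The median transcript of the top 30 by TPM was 612 bases long and that of the top 100 was 832 bases, beside 2968 bases over the genes of at least 1 TPM. Median coding lengths were 408, 423 and 1350 bases. An order by level divided by length itself favours short transcripts, and the top 30 by CPM had a median transcript length of 2160.5 bases. By CPM the first gene was Eef1a1, which encodes elongation factor 1A, with 3580, 3298, 3299 and 3761 CPM. The membrane fusion gene Snap25 followed with 2990, 3420, 3645 and 3058 CPM, then Npy, the constitutive chaperone gene Hspa8 with 3030, 2593, 2266 and 3389 CPM, and Calm2 with 2598, 2717, 2811 and 2845 CPM. Vamp2, Gnas, Arf3 and Rpl41 were also among the first 10 by CPM, at means of 2439 to 2589 CPM. Eef1a1, Snap25, Npy, Calm2 and Rpl41 were among the first 30 on both scales. Eef1a1 was also the first of 65 genes for translation factors per length (4263 ± 218 TPM), ahead of Eef1g (1477 ± 98.8 TPM), Eif1 (1146 ± 37.8 TPM) and Tpt1 (1139 ± 64.2 TPM), and the list took 1.76% ± 0.063 of the counts.

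The peptide and secretory side of these cells was narrow at its head. Of 57 genes for neuropeptides and peptide hormones only Npy, Agrp and Sst reached 100 CPM in all 4 libraries, and 14 reached 10 CPM. The list took 0.475%, 0.478%, 0.418% and 0.598% of the counts. Precursors of other hypothalamic neurons were also present: Pmch, of melanin-concentrating hormone neurons, had 113, 111, 157 and 91.4 CPM, Avp, of vasopressin neurons, had 70.1, 84.0, 112 and 88.0 CPM, and Hcrt, of orexin neurons, had 32.1, 36.9, 44.0 and 24.9 CPM. All 3 were highest in library 3. Cartpt, a precursor of neighbouring arcuate neurons, had 48.9, 64.9, 60.5 and 81.6 CPM and was highest in library 4. Per length Npy exceeded Pmch (347 ± 84.8 TPM) and Avp (338 ± 69.2 TPM) by over 1 order of magnitude. The cholecystokinin gene Cck (26.5, 54.3, 24.8 and 31.5 CPM) varied most among peptide genes of at least 10 CPM, with a CV of 39.7%, and library 2 was its high one.

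Genes that process prohormones were abundant and much steadier than the peptides. The 22 genes of granins and processing enzymes took 0.478% ± 0.025 of the counts (SD, n = 4), nearly the share of the peptide genes, with a CV of 5.33%. The convertase inhibitor gene Pcsk1n had 1362 ± 122 TPM, the carboxypeptidase gene Cpe 589 ± 17.8 TPM, the secretogranin gene Scg2 574 ± 47.7 TPM and the dense-core vesicle gene Ptprn 344 ± 43.1 TPM. Vgf, a secreted granin-like precursor, departed from this with 23.2, 25.2, 16.9 and 52.6 CPM, highest in library 4 like Npy and Agrp. The convertase gene Pcsk2 had 68.9, 70.6, 110 and 87.1 CPM, highest in library 3.

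Chaperone genes followed the library order of Npy and Agrp. The 33 genes for cytosolic chaperones and heat shock proteins took 1.52%, 1.44%, 1.28% and 1.62% of the counts, lowest in library 3 and highest in library 4. Of the 29 with at least 10 CPM, 20 were lowest in library 3 and 14 highest in library 4, beside 31.0% and 22.2% of all genes of that level. Hspa8 (2582 ± 416 TPM), Hsp90ab1 (2052 ± 218 TPM), the cyclophilin gene Ppia (1592 ± 98.1 TPM) and Hsp90aa1 (1059 ± 89.1 TPM) led per length. The co-chaperone gene Bag3 had 46.9, 32.0, 20.9 and 41.8 CPM and Ahsa1, an activator of HSP90, had 110, 115, 93.2 and 151 CPM. For 44 genes of chaperones and protein entry in the endoplasmic reticulum the sums were 4718, 4698, 4677 and 5313 CPM, with 22 of 44 members highest in library 4, beside 22.2% of all genes of at least 10 CPM. Their leaders per length were Hsp90b1 (383 ± 34.5 TPM), the translocon gene Sec61b (347 ± 33.0 TPM), Tmed10 (300 ± 15.6 TPM) and the signal peptidase gene Spcs1 (277 ± 13.8 TPM). Sec61a1 (51.8, 23.2, 27.4 and 27.4 CPM) and Pdia4 (26.1, 19.3, 20.8 and 33.3 CPM) varied most.

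Few of the listed GABAergic genes were abundant. Gad2, which makes GABA for release, had 1436, 1299, 1503 and 1538 CPM and 552 ± 36.5 TPM. Gad1, the other GABA-making enzyme, had 220, 220, 157 and 204 CPM and 131 ± 19.2 TPM. The GABA-degrading enzyme gene Abat had 170 ± 14.4 TPM, and Slc32a1, the vesicular GABA transporter, had 106, 102, 80.9 and 87.4 CPM and 73.7 ± 9.23 TPM. Gad1 and Slc32a1 were both lowest in library 3, whereas Gad2 was not. Of the 9 genes in the list 4, all of the Dlx group of forebrain developmental genes, did not reach 10 CPM in all libraries.

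Transmitter release and calcium signalling genes ranked high and were even. The 40 synaptic vesicle and release genes took 1.56% ± 0.058 of the counts. Snap25 (3406 ± 362 TPM) and its fusion partner Vamp2 (2580 ± 207 TPM) led, before the vesicle protein gene Syp (832 ± 78.0 TPM) and Rab3a (651 ± 6.87 TPM). Vamp1 (58.5, 65.9, 97.6 and 45.0 CPM) and Cplx1 (123, 216, 202 and 156 CPM) varied most. Among 30 genes of calmodulin and calcium signalling, which took 1.24% ± 0.060, Calm2 was joined by the calmodulin regulator Pcp4 (4338 ± 269 TPM) and the calcium sensor gene Vsnl1 (979 ± 215 TPM). In this list 16 of 29 genes with at least 10 CPM were highest in library 3, beside 29.4% of all genes of that level. Nrgn (11.3, 21.3, 28.2 and 23.4 CPM) and Necab2 (69.1, 46.5, 37.5 and 44.2 CPM) varied most.

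Receptor and channel messages were spread over many genes. The median member had 14.1 TPM in the list of GABA and glutamate receptor genes. It had 4.13 TPM among the potassium channel genes and 10.7 TPM among the sodium, calcium and HCN channel genes. The 48 genes of GABA and glutamate receptors took 0.514% ± 0.022 of the counts. Among the highest members of this list per length were Grina (253 ± 14.9 TPM), Gabbr1 (240 ± 11.3 TPM) and Gabre (135 ± 17.4 TPM). Gabre encodes a subunit of GABA-A receptors and Gabbr1 one of the GABA-B receptor, while Grina encodes no receptor subunit. The 93 potassium channel genes took 0.326% ± 0.005, with a CV of 1.64%. Kcnk2, a leak channel gene, had 133 ± 11.0 TPM, the channel-interacting genes Kcnip4 and Kcnip1 had 107 ± 16.8 and 87.8 ± 9.34 TPM, and Kcnq3, of the M-type current, had 86.4 ± 13.03 TPM. Kcnb2 (73.7, 80.8, 114 and 37.4 CPM) was high in library 3 and low in library 4. Among 41 sodium, calcium and HCN channel genes Cacnb3 (107 ± 8.75 TPM) and Cacna2d2 (86.6 ± 1.65 TPM) led, and Hcn3 (21.01, 22.7, 17.3 and 47.2 CPM) was high in library 4.

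Of 32 genes of insulin, leptin and nutrient sensing, Irs4 stood alone: it had 567 TPM, while the next, the kinase gene Akt1, had 73.1 ± 9.18 TPM. The transcription factor gene Stat3 had 55.2 ± 7.46 TPM. Irs1, which encodes another insulin receptor substrate, had 9.26, 27.2, 22.2 and 29.8 CPM, or 5.31 ± 2.18 TPM. The list took 0.350% ± 0.015 of the counts.

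Nuclear genes of energy metabolism were abundant, and their share was even across libraries. The 92 nuclear genes of oxidative phosphorylation took 2.06%, 2.03%, 2.00% and 2.06% of the counts, the smallest CV of any list (1.48%), and 66 of them reached 100 CPM in all 4 libraries. The cytochrome c oxidase subunit genes Cox7c (2490 ± 106 TPM) and Cox8a (2449 ± 37.5 TPM), the ATP synthase inhibitor gene Atpif1 (2466 ± 109 TPM) and the complex III gene Uqcrh (2071 ± 81.4 TPM) led, and the first 3 were not separated beyond their spread. Ndufaf6 (17.3, 11.8, 8.52 and 5.33 CPM) and Ndufs3 (100, 95.1, 64.7 and 76.8 CPM) varied most. Glycolysis genes, 19 in number, took 0.704% ± 0.036, led by Gapdh (3048 ± 258 TPM), Pgam1 (1205 ± 23.0 TPM) and Aldoa (1082 ± 84.6 TPM). The sodium-potassium and vacuolar ATPase genes took 0.800% ± 0.032, with the pump subunit gene Atp1b1 at 1193 ± 80.8 TPM.

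The 13 protein-coding genes of the mitochondrial genome, which mitochondria translate on their own ribosomes, took 0.383%, 0.643%, 0.484% and 0.381% of the counts. mt-Co1 had 1289, 1348, 1459 and 1189 CPM, mt-Nd1 525, 603, 693 and 581 CPM and mt-Nd4 410, 730, 588 and 460 CPM. The high value of library 2 came mostly from mt-Nd5, which had 429, 2268, 616 and 476 CPM. mt-Nd6, which lies next to mt-Nd5 on the opposite strand, had 33.4, 190, 54.6 and 37.1 CPM. The annotated span of mt-Nd6 starts at base 13552, and that of mt-Nd5 ends at base 13565. Reads within this short overlap cannot be told apart, since no strand setting is stated. Of the 13 genes 6 were highest in library 2 and 7 in library 3. Besides mt-Nd5, mt-Nd6 and mt-Nd4, those highest in library 2 were mt-Cytb (346, 491, 453 and 382 CPM), mt-Nd3 (5.04, 16.4, 14.1 and 13.6 CPM) and mt-Nd4l (5.93, 11.77, 11.75 and 8.54 CPM), in all of which library 3 came next. By contrast mt-Co3 had 109, 59.7, 113 and 69.1 CPM and mt-Co2 240, 211, 263 and 188 CPM, both lower in library 2 than in libraries 1 and 3. mt-Atp6 (240 ± 30.3 CPM), mt-Nd2 (210 ± 46.5 CPM) and mt-Atp8 (27.0 ± 6.55 CPM) completed the set. Nuclear copies of mitochondrial genes make all these counts uncertain.

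Mff is the gene targeted in these cells and encodes a receptor for the fission enzyme DRP1 on the outer mitochondrial membrane. Its level was 93.1, 105, 99.7 and 99.7 CPM, or 105 ± 6.04 TPM, at rank 1615. Reads from exons that stay in the genome and RNA of other cells count towards it, so this level does not check the deletion. Mff was the fifth of 24 genes for mitochondrial fission and fusion by TPM. The adaptor gene Fis1 (444 ± 21.7 TPM), the kinase gene Prkaca (367 ± 25.4 TPM), Dnm1l, which encodes DRP1 itself (171 ± 8.67 TPM), and Gdap1 (162 ± 7.88 TPM) were above it. The cristae gene Immt (92.5 ± 12.7 TPM), Mtfr1l (89.4 ± 2.29 TPM), the calcineurin gene Ppp3ca (87.9 ± 12.7 TPM), and the fusion genes Mfn2 (70.5 ± 7.29 TPM) and Opa1 (54.9 ± 2.83 TPM) followed. Mfn1, the second mitofusin, had 21.1 ± 4.94 TPM.
The DRP1 receptor genes Mief1 and Mief2 were low, with 9.27 ± 3.14 TPM and 5.40 ± 2.19 TPM. The rest ran from Mtfp1 (51.9 ± 13.4 TPM), Spire1 (49.0 ± 6.88), Chchd3 (41.6 ± 6.69), Pgam5 (38.2 ± 11.9), Yme1l1 (35.8 ± 2.92), Dnm2 (22.0 ± 3.07), Mtfr1 (14.3 ± 1.40) and Oma1 (10.5 ± 3.45) down to Akap1 (3.05 ± 0.95), Inf2 (2.76 ± 1.74) and Mtfr2 (0.20 ± 0.37). Mfn2 exceeded Mfn1, and Fis1 exceeded Mff, by far more than their SDs. The list held 0.240% ± 0.006 of the counts, with a CV of 2.39%. Of 23 genes for mitochondrial calcium handling, Smdt1, a regulator of the calcium uniporter, led with 635 ± 30.3 TPM, before the outer membrane channel genes Vdac1 (316 ± 23.4 TPM), Vdac3 (267 ± 36.3 TPM) and Vdac2 (216 ± 30.03 TPM). The pore gene Mcu itself had 5.92, 13.5, 18.1 and 11.3 CPM, or 9.34 ± 3.95 TPM.

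Imprinted genes, which are expressed from 1 parental copy, took 1.86%, 1.82%, 1.81% and 1.93% of the counts, a share larger than that of the synaptic vesicle list. Of 43 such genes 24 reached 100 CPM in all 4 libraries. Peg3 had 2667, 2150, 2175 and 2229 CPM, with library 1 apart from the rest, and Peg10 had 1654, 1574, 1798 and 2215 CPM, highest in library 4. Per length the splicing protein gene Snrpn (1460 ± 63.8 TPM), Gnas (1391 ± 98.1 TPM), which encodes the stimulatory G protein subunit, Nap1l5 (1330 ± 52.4 TPM) and Nnat (1248 ± 270 TPM) led. Snrpn, Nap1l5 and Gnas kept CVs of 3.55%, 3.65% and 7.85%, while Nnat had 489, 662, 810 and 796 CPM. Igf2 (26.0, 62.5, 63.2 and 107 CPM) and Blcap (125, 135, 248 and 123 CPM) varied most.

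Genes of the cytoskeleton took 2.65% ± 0.083 of the counts over 103 genes, the second largest share of a list. They were led by the tubulin genes Tuba1b (2680 ± 117 TPM) and Tuba1a (2006 ± 207 TPM), the microtubule regulator Stmn1 (1901 ± 99.2 TPM) and the actin-binding peptide gene Tmsb10 (1686 ± 94.3 TPM). Among 85 ubiquitin and proteasome genes, which took 1.15% ± 0.038, Ubb (1876 ± 135 TPM) and the neuronal hydrolase gene Uchl1 (909 ± 40.6 TPM) led. Immediate early genes, which respond to recent activity, were low: the 28 genes took 0.043%, 0.045%, 0.062% and 0.048% of the counts. Jun (138, 112, 103 and 92.8 CPM) and Jund (54.04, 53.5, 57.8 and 55.1 CPM) led per length. Egr1 had 39.5, 58.8, 119 and 40.0 CPM, Btg2 6.54, 10.4, 42.4 and 12.1 CPM and Fosl2 6.67, 11.4, 29.4 and 47.1 CPM, so Egr1 and Btg2 were highest in library 3 and Fosl2 in library 4.

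**Figure D3:**
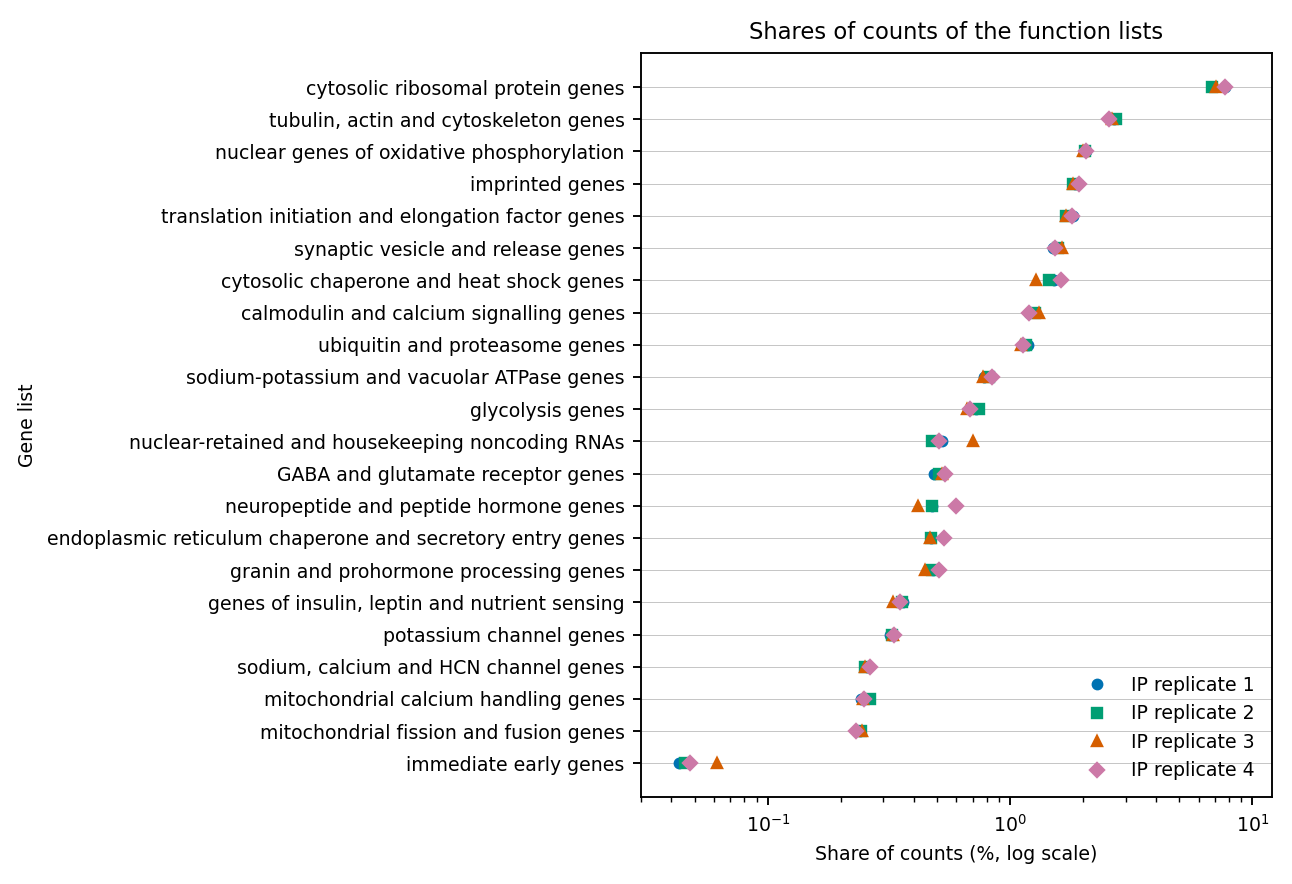
Share of the counts without ribosomal RNA features (horizontal, percent, log scale) held by each of the 22 lists of genes by function, 1 symbol per IP replicate. The lists run from 7.32% for ribosomal protein genes to 0.049% for immediate early genes on average; the 4 replicates lie close together in most lists and spread most for nuclear-retained noncoding RNAs, immediate early genes and peptide genes.

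Nuclear protein-coding genes held 97.3% ± 0.20 of the counts. Long noncoding genes held 1.30%, 1.25%, 1.55% and 1.27%, highest in library 3. By CPM their first gene was Malat1, a nuclear RNA, with 1712, 1385, 3166 and 1660 CPM, followed by Gas5 (1674, 1384, 1483 and 1593 CPM), a host gene of small nucleolar RNAs that is known to sit on ribosomes. Peg13 (673 ± 52.6 CPM), Meg3 (453, 439, 625 and 514 CPM), Gm7292 (401 ± 59.8 CPM), Tug1 (370 ± 20.3 CPM), Gm10076 (325 ± 31.5 CPM), Dbpht2 (317 ± 32.3 CPM), 1500004A13Rik (285 ± 25.9 CPM) and Gm26825 (216, 366, 280 and 32.9 CPM) were next by CPM. Per length the order was another, with Gm10076 at 1858 ± 189 TPM, Gas5 at 1317 ± 96.6 TPM and Malat1 at 624 ± 258 TPM. The 25 nuclear-retained and housekeeping noncoding RNAs summed to 5253, 4743, 7059 and 5084 CPM, and 10 of the 15 with at least 10 CPM were highest in library 3, beside 29.4% of all genes of that level. Malat1, Rn7sk (159, 244, 407 and 181 CPM), the RNA of a transcription elongation regulator, and Rn7s2 (9.46, 24.5, 53.0 and 16.2 CPM), an RNA of the signal recognition particle, were among them.

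Pseudogenes held 0.402% ± 0.014 of the counts, led by CPM by Gm29216 (269 ± 31.7 CPM), Gm28661 (222 ± 53.3 CPM) and Gm28437 (221 ± 50.5 CPM), which are nuclear copies of mitochondrial genes. Small and other noncoding genes held 0.147% ± 0.013. The highest of them by CPM, the microRNA gene Mir6236 (966 ± 196 CPM), is known to share sequence with ribosomal RNA and was not among the removed features; after it came Rn7sk and Gm24245 (82.7 ± 25.7 CPM). Genes of the annotation class TEC, records that await experimental evidence, held 0.186% ± 0.029. By CPM they were led by Gm37376 (688, 641, 942 and 732 CPM, rank 21 by TPM), RP24-230J14.5 (348 ± 102 CPM) and RP23-231L15.4 (71.2 ± 17.4 CPM). Gm37376 lies within the span of Malat1 on the opposite strand, and no strand setting is stated. Its reads therefore cannot be told from those of Malat1. Genes of the table not found in the annotation held 0.110% ± 0.009, with A830010M20Rik (146 ± 14.54 CPM), Kantr (138 ± 31.7 CPM) and Snhg4 (87.1 ± 8.79 CPM) first by CPM. Immune receptor segments held 0.006% ± 0.001.

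Markers of other cell types were present at low level. The 149 genes of 12 lists of other neurons, glia, vessels, ependyma, choroid plexus, pituitary and blood took 0.374%, 0.429%, 0.519% and 0.415% of the counts in all, beside 0.896%, 0.886%, 0.757% and 1.03% for the 16 AgRP neuron markers. Some of them, such as Tnr and Aldoc, are expressed in many neurons too. Astrocyte markers summed to 1481, 1661, 2062 and 1502 CPM, with the metabolic gene Aldoc (346 ± 34.1 TPM), the pump subunit gene Atp1b2 (230 ± 42.2 TPM), the glutamate transporter gene Slc1a2 (124 ± 27.3 TPM) and S100b (74.0 ± 26.6 TPM) first. Oligodendrocyte markers summed to 1037, 1208, 1509 and 1251 CPM, with the myelin genes Mbp (183 ± 26.0 TPM), Cnp (108 ± 17.4 TPM) and Mobp (101 ± 25.5 TPM) among the highest. Microglia markers summed to 38.6 to 48.6 CPM, vascular markers to 35.1 to 77.5 CPM and tanycyte and ependymal markers to 53.1 to 71.5 CPM. Among 18 markers of other arcuate neurons none reached 100 CPM in all libraries, and the precursor gene Pomc of the neighbouring satiety neurons had 18.3, 19.0, 11.0 and 12.5 CPM, or 32.0 ± 8.64 TPM. Slc17a6, the glutamate transporter of other hypothalamic neurons, had 62.4, 66.4, 91.7 and 64.2 CPM. Per length it had 37.8 ± 7.67 TPM, beside the 73.7 ± 9.23 TPM of Slc32a1. Of the pituitary genes, the transcription factor gene Pou1f1 was listed at 0 in all 4 libraries. Pou1f1 was named after its values were seen.

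Replicates differed by far more than counting error. Over genes of at least 10 CPM the median CV was 14.6%. It was 22.4% at 10 to 30 CPM, 14.1% at 30 to 100 CPM, 9.40% at 100 to 300 CPM, 6.77% at 300 to 1000 CPM and 7.24% above, where counting error alone gives 3.93%, 2.29%, 1.35%, 0.789% and 0.449%. The spread thus stopped narrowing at high level. Of the 96 genes that averaged 1000 CPM or more, Malat1 had the largest CV (40.5%), and Npy (22.0%), Agrp (19.1%), Hspa8 (17.4%) and Peg10 (15.8%) came next. The genes that define these neurons thus held the second and the third place by spread in that class.

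Among the 4376 genes of at least 50 CPM, 4239 remained once symbols of predicted genes, such as Gm26825 with its CV of 63.1%, were left out. Of the 12 of these with the largest CV, 6 had 1 library set apart from the other 3 by a gap of over 0.829 of their range, namely Ext2, Preb, Hmgb1, Sall2, mt-Nd5 and mt-Nd6. Ext2, an enzyme gene of heparan sulfate synthesis, had 22.8, 41.7, 53.9 and 262 CPM, a CV of 118%, and Preb, a gene of vesicle formation at the endoplasmic reticulum, had 69.8, 88.4, 62.1 and 287 CPM, both high in library 4. Hmgb1, a chromatin protein gene, had 141, 313, 120 and 136 CPM, high in library 2 together with mt-Nd5 and mt-Nd6. Sall2, a transcription factor gene, had 239, 97.4, 99.7 and 78.7 CPM, high in library 1. Iglon5, a neuronal adhesion gene, had 25.9, 52.5, 97.9 and 50.3 CPM, highest in library 3 like Egr1 and Rn7sk. Igf2, Rapgefl1 (76.5, 53.6, 59.2 and 23.1 CPM) and the mitochondrial transport gene Rhot1 (31.6, 82.3, 44.0 and 52.5 CPM) completed the 12.
The spermine synthase gene Sms, with 234 ± 1.70 CPM and a CV of 0.726%, stood among the genes of smallest spread. The vesicle coat gene Sar1a (268 ± 2.18 CPM), Polr2m (419 ± 3.84 CPM), the axonal transport gene Mapk8ip3 (249 ± 2.35 CPM), Rabl6 (180 ± 1.88 CPM), the RNA-binding protein gene Pum2 (265 ± 2.76 CPM), the G protein subunit gene Gng3 (1541 ± 16.4 CPM), Unc5c (85.4 ± 0.91 CPM), Vcpip1 (159 ± 1.75 CPM) and Gstp1 (230 ± 3.09 CPM) did too. With 4 libraries the extremes among 4239 genes include values below counting error.

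**Figure D4:**
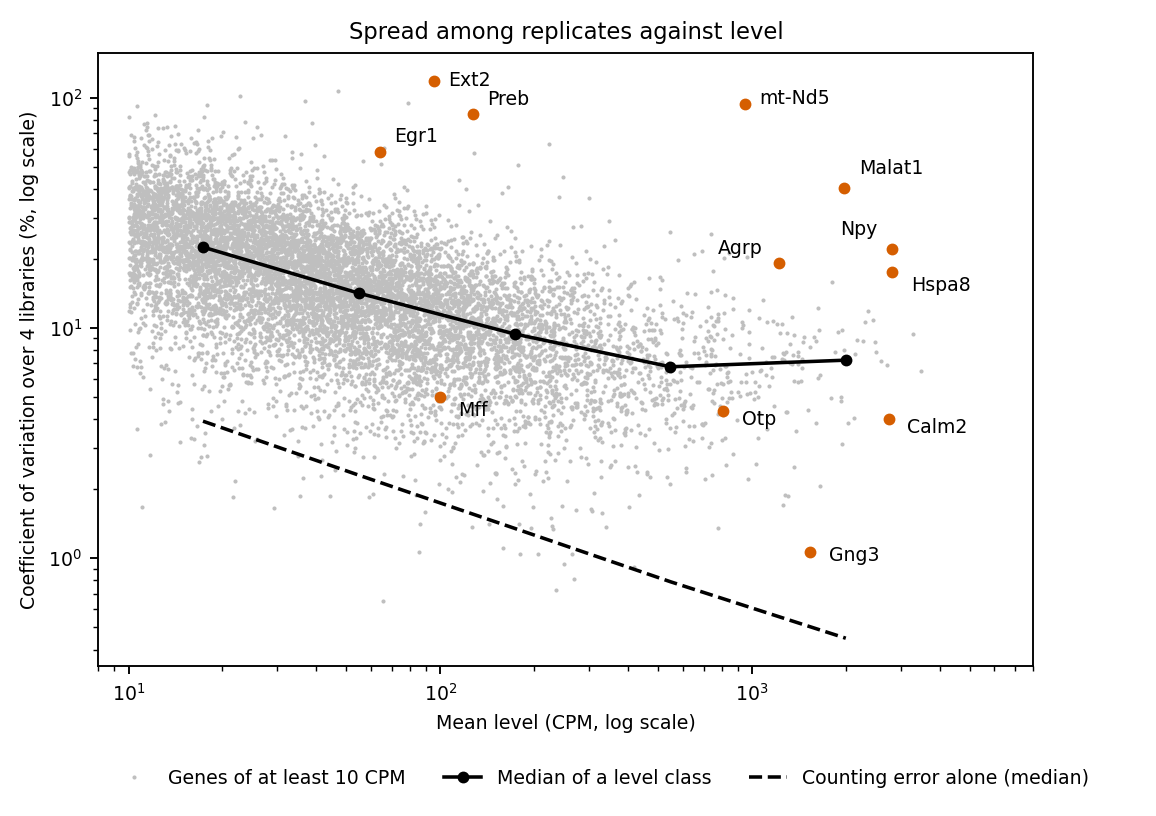
Coefficient of variation over the 4 IP replicates (vertical, percent, log scale) against mean CPM (horizontal, log scale) for the genes of at least 10 CPM (grey), with the median of each level class (solid line), the median that counting error alone gives (dashed line) and named genes (orange). Npy, Agrp, Hspa8 and Malat1 lie far above the median of their level class, and Otp, Calm2 and Gng3 below it.

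The libraries differed in a pattern shared by several lists. In library 3 none of the 16 AgRP neuron markers was highest and 10 were lowest, while in library 4 10 were highest and 1 lowest. Over all 9421 genes of at least 10 CPM 29.4% were highest and 31.0% lowest in library 3, and 22.2% were highest in library 4. In the same library 3, 10 of 12 astrocyte markers, 8 of 13 oligodendrocyte markers, and all 3 glutamatergic and ventromedial markers with at least 10 CPM were highest. The summed glutamatergic and ventromedial markers were 115, 121, 181 and 115 CPM, those of other hypothalamic nuclei 326, 345, 437 and 344 CPM, and those of vessels 36.9, 47.4, 77.5 and 35.1 CPM. Library 3 therefore had the lowest level of AgRP neuron markers and the highest of these lists, together with the highest levels of nuclear-retained RNA. Of the 12 lists of other cells 7 were highest in library 3, 3 in library 2 and 2 in library 4. Those not highest in library 3 were the markers of oligodendrocyte precursors (314, 343, 335 and 326 CPM), choroid plexus (28.0, 37.4, 25.2 and 30.2 CPM), microglia (38.6, 48.6, 46.3 and 46.3 CPM), tanycytes and ependyma (53.1, 57.6, 56.1 and 71.5 CPM) and other arcuate neurons (184, 208, 226 and 227 CPM). Aldoc differed little between libraries 2 and 3. The part that RNA of other cells has in the lower Npy and Agrp levels of library 3 was not tested.

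**Figure D5:**
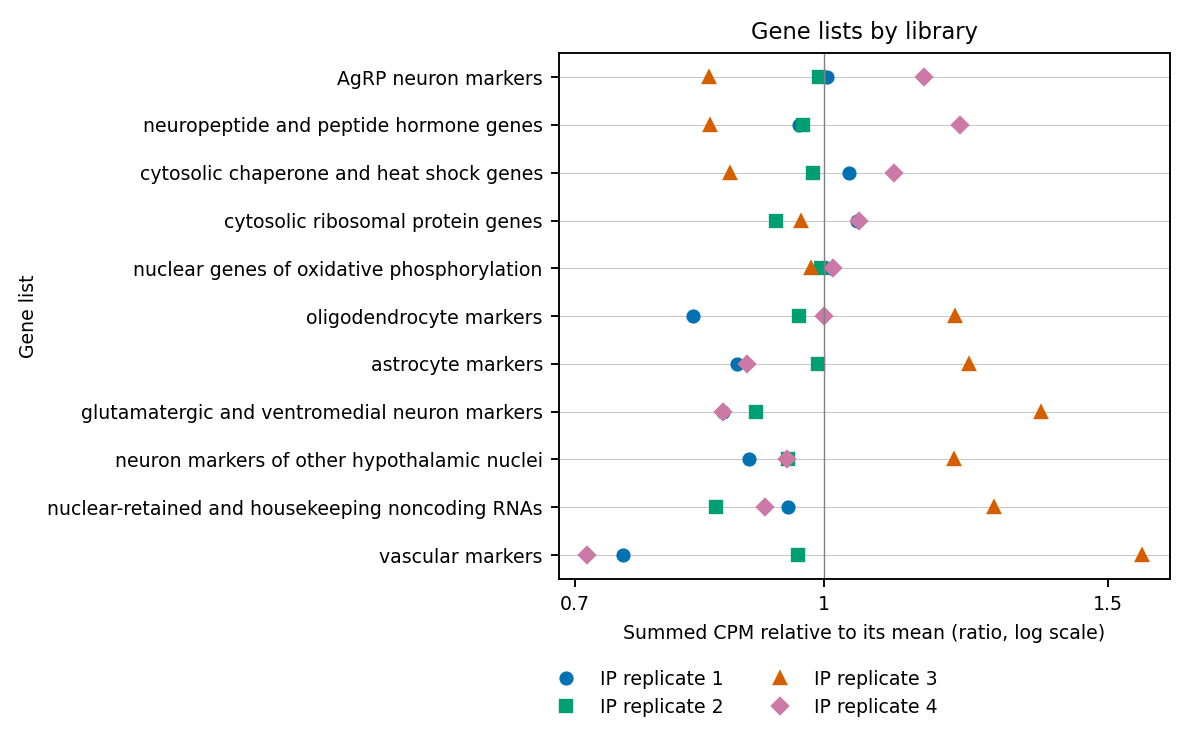
Summed CPM of 11 gene lists, chosen after their sums were seen, in each IP replicate, divided by the mean of the 4 (horizontal, ratio, log scale). Library 3 (triangles) lies at the left for AgRP markers, peptide genes and cytosolic chaperones and at the right for astrocyte, oligodendrocyte, vascular and the 2 plotted lists of other neuronal markers and nuclear-retained RNAs; nuclear genes of oxidative phosphorylation hardly move.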

How the data were processed

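Sequencing libraries of TRAP IP RNA were grouped by sample title (4 IP libraries, 3 pooled mice each). The authors deposited the estimated counts of each gene, made with Salmon 0.14.1 on GRCm38.p6, per the submitters' processing notes, and not normalized. The release of the annotation, read trimming and the strand option are not stated. Salmon divides reads that fit several transcripts, so counts of near-identical or overlapping genes are uncertain. Totals were 39.9 to 64.8 M counts. From these, 360 ribosomal RNA features were removed (356 by annotated type and the others by name, among them Lars2 and Yam1, whose exons hold such repeats), and CPM were computed with no scaling factor. TPM used the longest protein-coding transcript in GENCODE M21, which held 98.8% of the 45706 identifiers, for transcripts of at least 200 bases, a minimum chosen after the data were seen. Python 3.11.15, pandas 2.3.3 and, for alternative TMM and RLE factors, edgeR 4.0.16 in R 4.3.3 were used. No test was made, since there is 1 group. The calculation of spread was tested on simulated data. The libraries are separate pools of mice, per the labels.

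The members and the 36 gene lists were chosen with earlier results of these data known. Named genes are Agrp, Npy, the 30 highest by TPM and by CPM, the 4 highest and the 2 most variable of each list, all AgRP markers and fission and fusion genes, the highest of each gene type, mitochondrial genes, and, without symbols of predicted genes, the 12 most and 12 least variable of at least 50 CPM. Not all genes the rule allows are named, and some are not reported here. Alternatives were other scaling factors, ribosomal RNA features kept or removed by type alone, median transcript length, other level minimums and each library left out.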

Additional observations from a re-analysis of the deposited data

Results flagged for a closer look

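Of 36 lists, 8 gene classes and 206 genes named in the text, 3 lists, 0 classes and 18 genes had 1 library set apart from the other 3 by a gap that takes most of their range. Chance alone sets apart about 1 in 20 groups of 4, and among all 9421 genes of at least 10 CPM it was 522 genes, or 5.54%. Several of the named genes were chosen for their spread.

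Library 3 was set apart as high for the glutamatergic and ventromedial neuron markers (181 CPM summed, against 115 to 121 CPM), for the markers of other hypothalamic nuclei (437 CPM, against 326 to 345 CPM), and for Slc17a6 (91.7 CPM), Blcap (248 CPM) and Btg2 (42.4 CPM). It was set apart as low for the chaperone gene Hsp90aa1 (1368 CPM, against 1643 to 1671 CPM), the ubiquitin gene Ubb (1130 CPM, against 1319 to 1343 CPM), the glycolysis gene Pgam1 (942 CPM, against 982 to 989 CPM) and the channel gene Vdac2 (151 CPM, against 204 to 210 CPM). Over all genes of at least 10 CPM, 132 were set apart as high and 78 as low in library 3, more than in any other library.

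Library 4 was set apart as high for the endoplasmic reticulum chaperone and secretory entry genes (5313 CPM summed, against 4677 to 4718 CPM), for the AgRP neuron marker Acvr1c (376 CPM, against 283 to 289 CPM), and for Ext2 (262 CPM) and Preb (287 CPM). Library 2 was set apart as high for mt-Nd5 (2268 CPM), mt-Nd6 (190 CPM) and Hmgb1 (313 CPM). Library 1 was set apart as high for Peg3 (2667 CPM), Sall2 (239 CPM), Prkaca (420 CPM, against 365 to 371 CPM) and Sec61a1 (51.8 CPM), and as low for Gng3 (1516 CPM, against 1545 to 1551 CPM), whose 4 values differ by little in absolute terms.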

How the results depend on the processing

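Of 51 recomputed levels, ranks, shares and counts of genes, 43 stayed within the spread of the 4 libraries, or within 1.5 times for counts of genes, and 8 moved further. The median CV, recomputed 8 times, has no spread to be held against. With ribosomal RNA features kept in the total, Agrp was 869 CPM, Npy 2001 CPM, the ribosomal protein share 5.21% and the number of genes holding 50% of the counts 307 (950 for the mean of the libraries as reported). The rank of Agrp per length was 20 as reported, 31 with median transcript lengths and 70 by CPM. Npy stood at rank 3 by CPM and at rank 2 with no minimum on transcript length, an alternative added after the data were seen, as were ranks without each library and levels without Mir6236 and Mir6240. The median CV was 20.3% at 1 CPM, 8.67% at 100 CPM, and 14.6% with TMM factors and with RLE factors. Leaving out each library in turn gave a median CV of 12.2% to 14.6%, lowest without library 3. Without library 3 Npy was 3032 CPM and Agrp 1302 CPM, and without library 4 they were 2539 and 1116 CPM. Summed AgRP markers were lowest in library 3 (7606 CPM) and highest in library 4 (10356 CPM) with TMM factors too. No paired analysis was possible because no result comes from a test. A number of 4 pools limits the precision of every SD, and 1 cut of tissue per pool leaves other cells in the material.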
